A study of Mus musculus with 12 samples.

Results

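The genes described here make cholesterol, sense it and send it out of the cell. They were 16 enzymes that turn acetyl-CoA into cholesterol, 6 genes of the SREBP control system, 2 genes that move sterols inside the cell, and the 3 LXR target genes Abca1, Abcg1 and Mylip. They were taken by gene symbol from a list of 30 genes, with a row counted as a gene's own if it named that gene alone, the row with the highest mean if there were several, and a mean of at least 1 FPKM over the 12 libraries. FPKM, the number of fragments scaled to transcript length and to library size, is a level per length and depth. This left 27 genes of the 39248 rows in the table, of which 14706 reached the same mean and were tested together. All 27 passed that filter with both arms above 1 FPKM. Of the other 3 listed genes, Mvd was not analysed here, and Tm7sf2 and Mbtps2 had values only in rows that name several genes.

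The 12 RNA-seq libraries came from 3T3-L1 cells, a mouse fibroblast line that is turned into adipocytes in culture. In 6 libraries the differentiated cells had received a control siRNA, and in the other 6 the siRNA was directed against Zfp407, the gene of a zinc finger protein. Of the latter, 3 libraries came from each of 2 siRNAs, but the table's column names do not say which. All 12 electroporations used 0.75 nmol of siRNA 2 days after differentiation, and each library came from its own electroporation of this 1 cell line. The p-values therefore rest on the spread between electroporations, to which unequal action of the siRNAs would add within the knockdown arm. Zfp407 itself, the check of the labels, was 2.84 ± 0.178 FPKM (SD, n = 6) in control and 1.79 ± 0.208 FPKM (SD, n = 6) in knockdown libraries. It was 36.9% lower, and the arms did not overlap (limma adjusted p = 8e-05). The authors' own test gave Zfp407 a q-value of 0.0734 and did not mark it as significant.

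Cholesterol is built from acetyl-CoA through mevalonate, isoprenoid units, squalene and lanosterol. The transcription factor SREBP2 (gene Srebf2) drives nearly all of these enzymes: when membranes hold little sterol, SCAP carries the SREBP precursor from the endoplasmic reticulum to the Golgi, where the site-1 and site-2 proteases (Mbtps1, Mbtps2) release its active part, and INSIG1 and INSIG2 hold SCAP back when sterols are plentiful. When oxysterols accumulate, the nuclear receptors LXRα and LXRβ act in the opposite sense, inducing the cholesterol exporters ABCA1 and ABCG1 and the ubiquitin ligase MYLIP, which sends lipoprotein receptors for breakdown. Abca1, Abcg1 and Mylip are grouped below as export genes for short, although MYLIP acts on these receptors and is not an exporter. Adipose tissue is a large store of free cholesterol, much of it at the surface of the lipid droplets.

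The enzymes of cholesterol synthesis were lower in the Zfp407 knockdown libraries, and the export genes showed smaller differences. Of the 16 enzymes, 13 fell (81.2%) and 0 rose, where 24.8% of all tested rows fell and 11.6% rose (limma on log2(FPKM + 1), adjusted p below 0.05 over all 14706 rows). The estimate was below 0 for all 16 enzymes, from -0.68 to -0.12 on the log2(FPKM + 1) scale with a median of -0.32, and the median of all tested rows was -0.05. Of the 3 export genes 1 fell, and their median was -0.07. Among 20 targets of SREBP2, which are the 16 enzymes with Insig1, Srebf2, Stard4 and Npc1, 15 fell and 0 rose. The 95% intervals of 15 of these 20 lay wholly below that of Abcg1, of 11 below that of Mylip, and of 7 below that of Abca1. The share of all tested rows with intervals below those of these 3 genes was not counted, so these counts have no background to be set against. The difference between the 2 groups as groups was not tested. Of all calls, 68.1% were lower, and 57.7% after each library was centred on its median. The same 13 enzymes kept their call under centring. In bulk RNA, fewer cells that express a gene and less of its RNA per cell cannot be told apart.

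**Figure D1:**
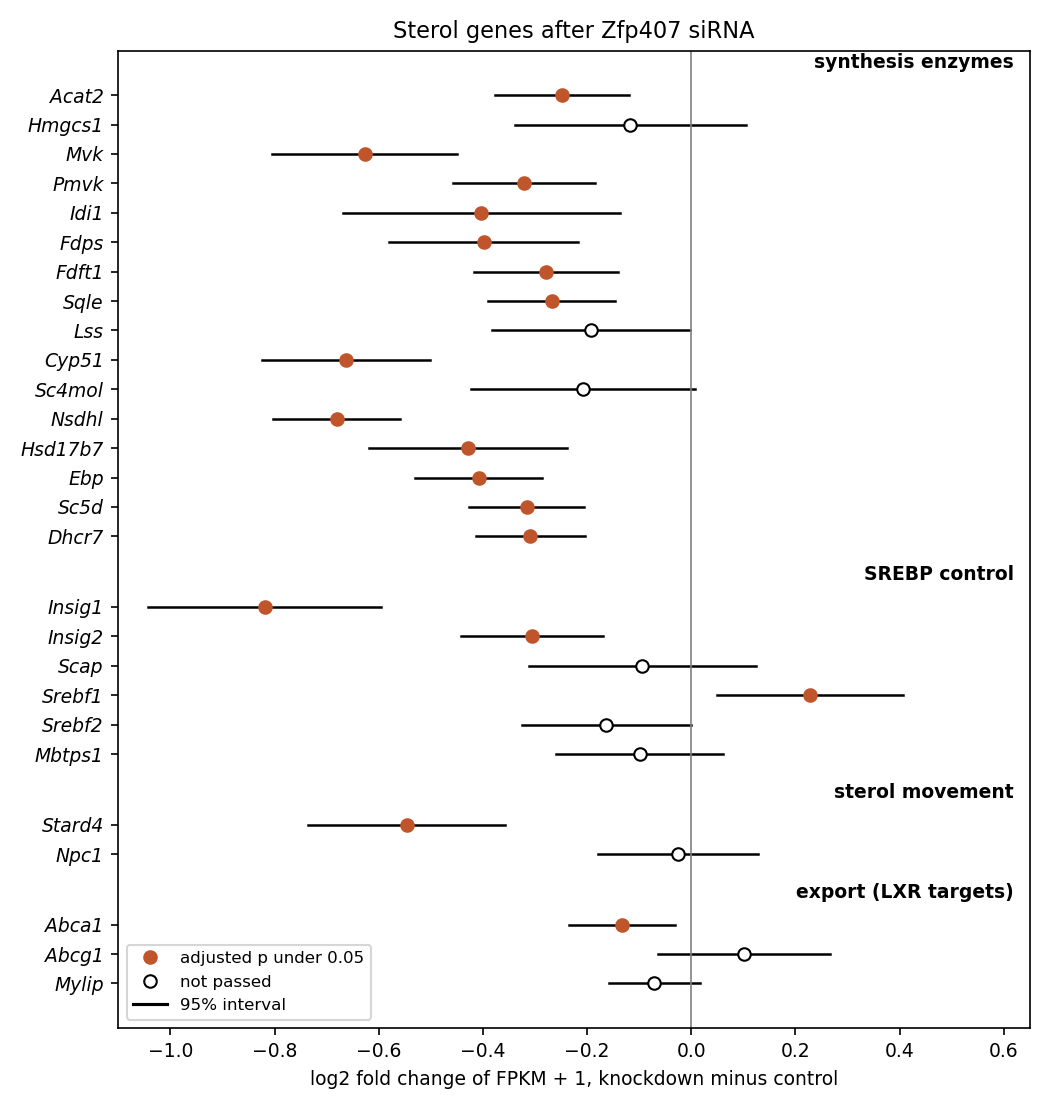
Log2 fold change of FPKM + 1 (x axis, knockdown minus control, 6 libraries per arm) for the 27 genes (y axis, by role), with 95% intervals from limma. Filled points passed an adjusted p of 0.05; all 16 enzymes lie left of 0, Insig1 lies furthest left at -0.82, and Srebf1 is the filled point on the right at 0.23.

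Most of the enzyme changes were modest in size. Tested against a fold of 1.2 (limma treat), 3 of the 16 enzymes and Insig1 passed as lower, where 3.69% of all rows passed as lower and 2.13% as higher. The lowest control library lay above the highest knockdown library for 9 of the 16 enzymes (56.2%) and for 11 of the 27 genes, where this held for 13.9% of all tested rows. For 5.51% of all rows every knockdown library lay above every control library, and 0 of the 27 genes were among them. The authors' deposited table marks 2 of the 27 genes as significantly lower, Nsdhl with a q-value of 5.36e-05 and Insig1 with a q-value of 1.6e-05. Of the rows with a completed test in the authors' deposited table, 1.15% are marked so.

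The stretch before the transcription start is where SREBP2, NF-Y and Sp1 act together on many of these genes. It is shown here for 3 enzymes and 2 export genes. The 200 bases upstream of the RefSeq start (mouse build GRCm38.p6) are given 5′ to 3′ on the gene's strand. Capitals mark a sterol regulatory element core (TCACNCCAC) or a CCAAT box, which NF-Y binds, on either strand, so that a CCAAT box on the other strand reads ATTGG. Hmgcs1 is shown for its exact match to the sterol regulatory element core, and Abca1 and Mylip as the LXR targets with an entry. Mvk and Nsdhl were added after their values were seen, as enzymes with large falls.
Hmgcs1 (chr13:119690151-119690350, plus strand): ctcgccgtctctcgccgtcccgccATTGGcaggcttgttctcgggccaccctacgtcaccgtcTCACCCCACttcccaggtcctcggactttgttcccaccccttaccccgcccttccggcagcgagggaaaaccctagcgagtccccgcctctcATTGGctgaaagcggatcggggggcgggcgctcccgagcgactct
Mvk (chr5:114444069-114444268, plus strand): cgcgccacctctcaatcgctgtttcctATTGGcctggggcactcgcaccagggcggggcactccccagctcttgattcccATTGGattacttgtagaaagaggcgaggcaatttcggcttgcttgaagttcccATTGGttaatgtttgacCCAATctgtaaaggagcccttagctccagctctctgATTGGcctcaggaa
Nsdhl (chrX:72918321-72918520, plus strand): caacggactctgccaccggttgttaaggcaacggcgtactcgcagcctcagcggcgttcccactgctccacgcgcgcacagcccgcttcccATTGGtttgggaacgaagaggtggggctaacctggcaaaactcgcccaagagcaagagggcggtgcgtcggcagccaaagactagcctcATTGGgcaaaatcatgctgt
Abca1 (chr4:53159896-53160095, minus strand): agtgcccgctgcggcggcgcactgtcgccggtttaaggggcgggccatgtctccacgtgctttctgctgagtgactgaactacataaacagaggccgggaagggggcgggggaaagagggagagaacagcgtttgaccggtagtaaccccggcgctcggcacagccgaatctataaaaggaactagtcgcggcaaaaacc
Mylip (chr13:45389542-45389741, plus strand): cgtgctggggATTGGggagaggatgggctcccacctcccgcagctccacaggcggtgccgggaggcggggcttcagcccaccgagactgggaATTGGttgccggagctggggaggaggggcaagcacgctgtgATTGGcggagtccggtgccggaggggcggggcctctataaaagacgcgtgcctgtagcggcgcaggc

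The 5 stretches differ in these letters. The Hmgcs1 stretch holds the element TCACCCCAC, 137 bases upstream of the start, and 2 CCAAT boxes. The Mvk stretch holds 5 CCAAT boxes, the Nsdhl stretch 2, the Mylip stretch 3 and the Abca1 stretch 0. RefSeq promoters, from 250 bases before to 50 after the start, were matched for 21 of the 27 genes, which left out Fdps, Fdft1, Sqle, Stard4, Npc1 and Abcg1. A CCAAT box on either strand was present for 12 of the 13 matched enzymes, 4 of the 6 SREBP control genes and 1 of the 2 matched export genes, and for 41.1% of the 27025 genes in the promoter table. The GC box bound by Sp1 (GGGCGG, either strand) was present for 12 of the 13 enzymes, 6 of the 6 control genes and 2 of the 2 export genes, and for 38.2% of the genes. Both boxes were also found at genes not called lower, such as Hmgcs1, Lss, Mylip and Srebf1. Acat2, which fell, held no CCAAT box. The part of either box in the falls was not tested. The exact letters of the sterol regulatory element core were found for Hmgcs1 only among the 21, and for 1.44% of the genes. Looser forms of the element were not sought, so a gene without a match may still hold one. The LXR element DR4 was sought as 2 exact half-sites AGGTCA with a spacer of 4 bases on either strand. It was found for 0 of the 21 and for 0.0148% of the genes. Letters this rare would be missing from nearly any 21 genes, so the 0 cannot show that these genes lack LXR sites. Looser forms and sites outside these promoters were not sought. A gene with several starts was counted once if any of its promoters held the letters, so such genes had more chances. The shares of genes are over the whole promoter table, whether or not a gene reached 1 FPKM here. Shares among genes that reached it were not counted. These are matches of letters, and factor binding was not measured in these libraries.

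The steps from acetyl-CoA to mevalonate pyrophosphate opened the pathway with both the smallest and some of the largest differences. Acat2, which joins acetyl-CoA units in the cytosol (chr17:12942890-12960747, here and below as the deposited table gives the locus), ranged from 76.4 to 91.5 FPKM in control libraries (median 81.4) and from 64.8 to 77.9 in knockdown libraries (median 66.4). Knockdown libraries 4 and 5 were the highest of their arm, and library 5 alone reached the control range; Acat2 fell by 15.98% (log2 change -0.25, SE 0.06, limma adjusted p = 0.00587). Hmgcs1, the HMG-CoA synthase (chr13:119690356-119708202), did not pass. Its control libraries held 93.3, 82.0, 86.0, 88.7, 96.5 and 91.2 FPKM and its knockdown libraries 69.2, 71.5, 71.1, 95.95, 104.5 and 89.05 FPKM. Knockdown libraries 1 to 3 lay below every control library, library 5 lay above every one, and libraries 4 and 6 lay within the control range. The Hmgcs1 log2 change was -0.12 (95% interval -0.34 to 0.11, limma adjusted p = 0.402, exact permutation p = 0.37).

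Mvk, the mevalonate kinase whose promoter is printed above (chr5:114444269-114460789), showed a complete separation. Its control libraries held 30.9, 26.5, 27.9, 27.25, 29.55 and 28.5 FPKM, and its knockdown libraries 16.1, 16.1, 15.7, 19.6, 22.35 and 19.3 FPKM. Every knockdown library lay below every control library. Mvk fell by 36.0%, a log2 change of -0.63 (95% interval -0.80 to -0.45, limma adjusted p = 1.04e-04, and 0.00972 against a fold of 1.2). The exact permutation p was 0.00216, the smallest that the divisions of 12 libraries into 6 and 6 allow. Pmvk, which adds the second phosphate (chr3:89459118-89469013), went from 29.0 ± 2.39 to 23.0 ± 1.82 FPKM (SD, n = 6 per arm). It fell by 20.7%, and 5 of the 6 knockdown libraries lay below the lowest control library (limma adjusted p = 0.00177).

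The isoprenoid steps fell as well. Idi1, which isomerises the isopentenyl unit (chr13:8885501-8892451), spread widely in the control arm, from 25.1 to 43.85 FPKM with a median of 35.2. In the knockdown arm it ranged from 22.7 to 28.7 FPKM with a median of 25.3. The arms overlapped, with 3 of 6 knockdown libraries below the lowest control library; Idi1 fell by 26.3% (log2 change -0.40, 95% interval -0.67 to -0.14, limma adjusted p = 0.0215, exact permutation p = 0.0216). Fdps, the farnesyl pyrophosphate synthase (chr3:89093587-89101967), ranged from 99.5 to 115.3 FPKM in control (median 101.2) and from 69.7 to 96.6 FPKM in knockdown libraries (median 75.7). All 6 knockdown libraries lay below the control range, library 5 by the least. Fdps fell by 23.9% (log2 change -0.40, limma adjusted p = 0.00277).

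At the entry to sterols, Fdft1 (squalene synthase) went from 27.7 ± 1.25 to 22.75 ± 2.49 FPKM (SD, n = 6 per arm), a fall of 17.9% with 5 of 6 knockdown libraries below the control range (limma adjusted p = 0.00473). Sqle, the squalene epoxidase that commits squalene to sterols, ranged from 58.2 to 62.2 FPKM in control and from 45.6 to 56.5 FPKM in knockdown libraries. The arms did not overlap, and Sqle fell by 16.9% (limma adjusted p = 0.00278). The deposited locus of Fdft1 (chr14:63122462-63177793) is shared with Ctsb, and that of Sqle (chr15:59315052-59601684) with Nsmce2 and E430025E21Rik. Lss, which closes squalene epoxide into lanosterol (chr10:76531517-76562226), did not pass. It ranged from 36.5 to 47.4 FPKM in control and from 32.6 to 44.1 FPKM in knockdown libraries, a log2 change of -0.19 (95% interval -0.38 to -0.003, limma adjusted p = 0.104). Lss passed without control library 3 (adjusted p = 0.0499) or without knockdown library 4 (adjusted p = 0.0412). The table has a second, weaker row with the same name and locus, which went from 2.10 ± 0.301 to 1.36 ± 0.273 FPKM (SD, n = 6 per arm) and fell (log2 change -0.39, limma adjusted p = 0.0044). The sources used here do not say how fragments were divided between rows of 1 locus.

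The enzymes that trim lanosterol to cholesterol held the largest enzyme falls. Cyp51, the lanosterol demethylase (chr5:3927428-4104792, a locus shared with Akap9), held 33.7, 29.5, 30.0, 31.7, 33.9 and 34.6 FPKM in control and 18.7, 17.5, 18.8, 23.4, 23.0 and 19.0 FPKM in knockdown libraries. Every knockdown library lay below every control library. Cyp51 fell by 37.7%, a log2 change of -0.66 (95% interval -0.82 to -0.50, limma adjusted p = 3.32e-05, and 0.00284 against a fold of 1.2). Nsdhl, a dehydrogenase, removes methyl carbons of the sterol ring once the methyl oxidase has acted on them (chrX:72918557-72958514). It held 43.2, 37.3, 38.4, 41.05, 45.8 and 40.4 FPKM in control and 23.55, 26.6, 25.2, 25.8, 27.05 and 23.15 FPKM in knockdown libraries. The lowest control library lay well above the highest knockdown library. Nsdhl fell by 38.6%, a log2 change of -0.68 (95% interval -0.80 to -0.56, limma adjusted p = 2.64e-06, and 2.44e-04 against a fold of 1.2).

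Sc4mol, now named Msmo1, is that methyl oxidase (chr8:64718068-64733792) and was the most abundant enzyme of the set, at 117.6 ± 15.7 FPKM in control and 101.4 ± 10.7 FPKM in knockdown libraries (SD, n = 6 per arm). It did not pass (log2 change -0.21, 95% interval -0.42 to 0.01, limma adjusted p = 0.121). Control library 2 was the lowest of its arm at 90.05 FPKM, and without it Sc4mol passed (adjusted p = 0.0163). With the column number as a block it also passed (adjusted p = 0.0165). Hsd17b7, the ketosteroid reductase of the pathway (chr1:169949535-170110882, a locus shared with Ddr2), was the least abundant enzyme, at 11.97 ± 0.916 and 8.69 ± 1.35 FPKM (SD, n = 6 per arm). It fell by 27.35% with no overlap (limma adjusted p = 0.00235).

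The last steps of the pathway fell by similar shares. Ebp, the sterol isomerase (chrX:8185208-8193512), ranged from 32.3 to 39.4 FPKM in control and from 24.4 to 29.2 FPKM in knockdown libraries. Sc5d, the desaturase that follows it (chr9:42251593-42264300), ranged from 24.1 to 26.4 FPKM and from 18.1 to 22.4 FPKM. Dhcr7, which reduces 7-dehydrocholesterol to cholesterol (chr7:143823145-143848412), ranged from 33.3 to 38.3 FPKM and from 26.7 to 31.3 FPKM. None of these 3 genes overlapped between arms: Ebp fell by 25.4% (limma adjusted p = 1.67e-04), Sc5d by 20.25% (adjusted p = 4.8e-04) and Dhcr7 by 19.8% (adjusted p = 3.95e-04). The multi-gene row that holds Tm7sf2, a sterol reductase, together with Zfpl1 and 1110014N23Rik, went from 73.2 ± 2.82 to 70.9 ± 4.21 FPKM (SD, n = 6 per arm) and did not pass (limma adjusted p = 0.434).

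**Figure D2:**
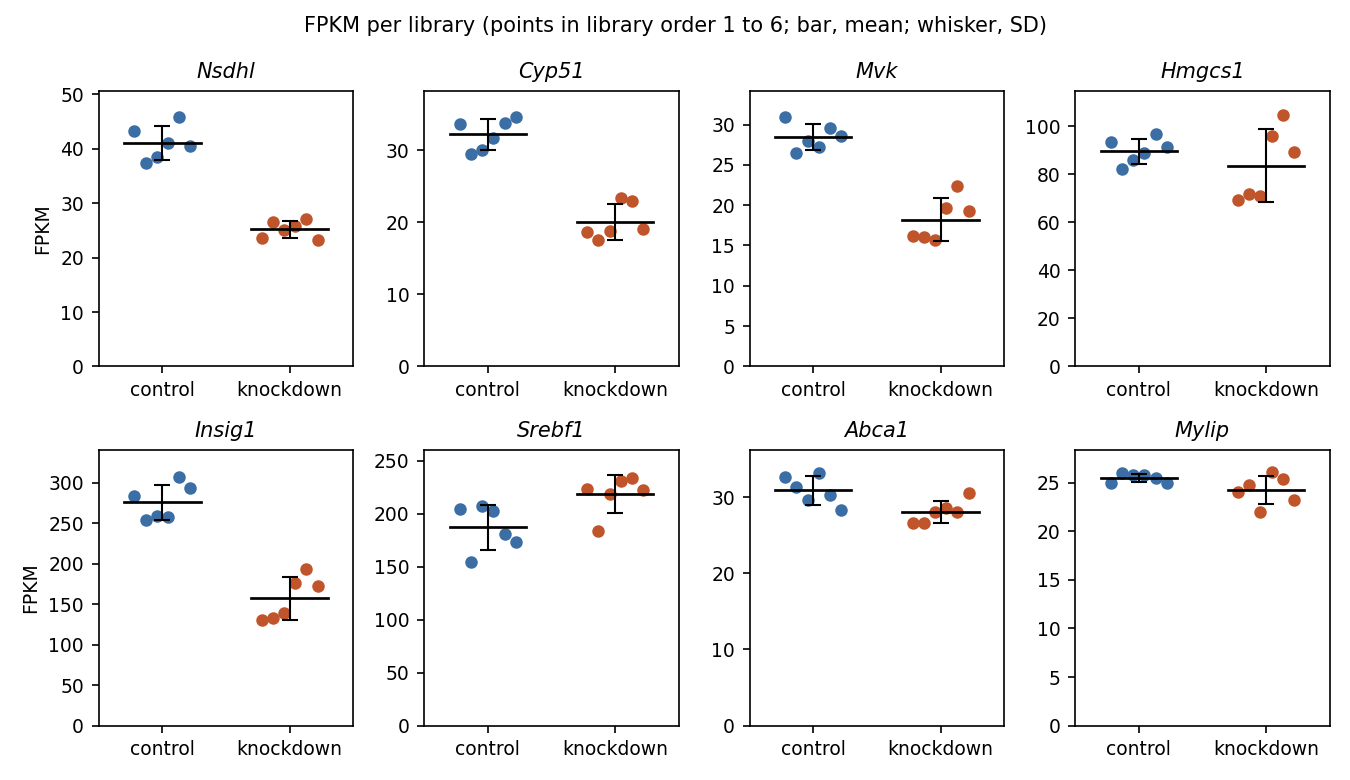
FPKM (y axis, from 0) of 8 genes in the 6 control and 6 knockdown libraries (points in library order 1 to 6; bar, mean; whisker, SD). Nsdhl, Cyp51, Mvk and Insig1 separate completely; Hmgcs1, Srebf1, Abca1 and Mylip overlap, with knockdown libraries 1 to 3 of Hmgcs1 between 69.2 and 71.5 FPKM and libraries 4 to 6 between 89.05 and 104.5.

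Among the SREBP control genes, both retention factors fell, and Scap and Mbtps1 did not pass. Insig1, itself an SREBP2 target (chr5:28071363-28078662), was the most abundant of the 27 genes in control libraries and had the largest change of the 27. Its control libraries held 283.9, 254.0, 259.1, 258.2, 306.6 and 292.9 FPKM and its knockdown libraries 130.2, 132.4, 138.9, 176.6, 193.2 and 172.8 FPKM. The highest knockdown library lay far below the lowest control library. Insig1 fell by 42.9%, a log2 change of -0.82 (95% interval -1.04 to -0.60, limma adjusted p = 8.19e-05, and 0.00278 against a fold of 1.2). Insig2, the second retention protein (chr1:121304353-121332653), ranged from 75.4 to 94.6 FPKM in control and from 64.3 to 77.65 FPKM in knockdown libraries. Only knockdown library 4 reached the control range, and Insig2 fell by 19.4% (limma adjusted p = 0.00241).

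Scap, the SREBP escort (chr9:110333288-110384947, a locus shared with 5830462I19Rik), was 30.5 ± 4.12 FPKM in control and 28.4 ± 3.17 FPKM in knockdown libraries (SD, n = 6 per arm; limma adjusted p = 0.492). Mbtps1, the site-1 protease (chr8:119508147-119558761), was 40.5 ± 1.48 and 38.0 ± 4.73 FPKM (SD, n = 6 per arm; adjusted p = 0.325). Neither passed, and their 95% intervals on the log2 scale, -0.31 to 0.12 and -0.26 to 0.06, still reach a fall as large as that of Acat2. The row that names Mbtps2, the site-2 protease, together with Yy2 rose from 16.9 ± 2.66 to 22.3 ± 2.04 FPKM (SD, n = 6 per arm; limma adjusted p = 0.00717), and the 2 genes cannot be told apart in it.

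The SREBP genes themselves did not move together. Srebf2, which encodes SREBP2 and is one of its own targets (chr15:82147241-82205376, a locus that also holds Mir33), ranged from 28.6 to 31.7 FPKM in control libraries. Its knockdown libraries held 24.85, 26.3, 23.15, 32.1, 31.8 and 26.3 FPKM, so that 4 lay below and 2 above the control range. Srebf2 did not pass (log2 change -0.16, 95% interval -0.33 to 0.00, limma adjusted p = 0.11), but did without knockdown library 4 (adjusted p = 0.0312) or 5 (adjusted p = 0.0396).

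Srebf1 encodes SREBP1, which favours genes of fatty acid synthesis (chr11:60104933-60222581, a locus shared with Rai1 and 4930412M03Rik), and was the only one of the 27 genes called higher. Its control libraries held 204.6, 154.1, 207.1, 202.6, 180.9 and 173.7 FPKM and its knockdown libraries 223.2, 184.0, 218.7, 230.9, 234.0 and 222.7 FPKM. Of the knockdown libraries 5 lay above the highest control library, and library 2 lay inside the control range. The log2 change was 0.23 (95% interval 0.05 to 0.41, limma adjusted p = 0.0455, exact permutation p = 0.026). This call was lost on leaving out control library 2, 5 or 6 or knockdown library 1, 3, 4, 5 or 6 (adjusted p from 0.0733 to 0.0872), and without the filter on low values (0.072).

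The 2 genes of sterol movement differed in their response. Stard4, a soluble carrier of cholesterol between membranes and an SREBP2 target, ranged from 9.45 to 13.5 FPKM in control (median 11.6) and from 6.59 to 8.86 FPKM in knockdown libraries (median 7.38). The arms did not overlap, and Stard4 fell by 34.5% (log2 change -0.55, SE 0.09, limma adjusted p = 4.41e-04); against a fold of 1.2 its adjusted p was 0.0545. Npc1, which lets cholesterol leave the lysosome, was 11.45 ± 0.789 FPKM in control and 11.3 ± 1.32 FPKM in knockdown libraries (SD, n = 6 per arm). Its log2 change was -0.025 (95% interval -0.18 to 0.13, limma adjusted p = 0.807). The sign of this small value turned under centring, as given in the closing section.

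Abca1, Abcg1 and Mylip, the LXR targets grouped here as export genes, moved little in either direction. Abca1, which loads cholesterol onto apolipoprotein A-I (chr4:53030781-53159976), held 32.6, 31.3, 29.6, 33.2, 30.2 and 28.3 FPKM in control and 26.55, 26.6, 28.0, 28.6, 28.0 and 30.5 FPKM in knockdown libraries. Of the knockdown libraries 4 lay below the lowest control library, and libraries 4 and 6 lay within the control range. Abca1 fell by 9.11% (log2 change -0.13, 95% interval -0.23 to -0.03, limma adjusted p = 0.0427, exact permutation p = 0.0238). The call was lost under median centring (adjusted p = 0.144) and without control library 1, 2, 4 or 5 or knockdown library 1, 2, 3, 4 or 5 (adjusted p from 0.0509 to 0.0933).

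Abcg1, which passes cholesterol to high-density lipoprotein (chr17:31057698-31116006), was the least abundant of the 27 genes. It ranged from 4.34 to 6.25 FPKM in control (median 4.99) and from 5.06 to 6.29 FPKM in knockdown libraries (median 5.29). It did not pass (log2 change 0.10, 95% interval -0.06 to 0.27, limma adjusted p = 0.321). Mylip (chr13:45389742-45421385) held 24.9, 25.9, 25.8, 25.8, 25.4 and 25.0 FPKM in control and 24.0, 24.8, 22, 26.1, 25.4 and 23.2 FPKM in knockdown libraries. The arms overlapped, and its log2 change was -0.07 (95% interval -0.16 to 0.02, limma adjusted p = 0.186). The interval of Mylip excludes a fall as large as those of Mvk, Cyp51, Nsdhl or Insig1.

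**Figure D3:**
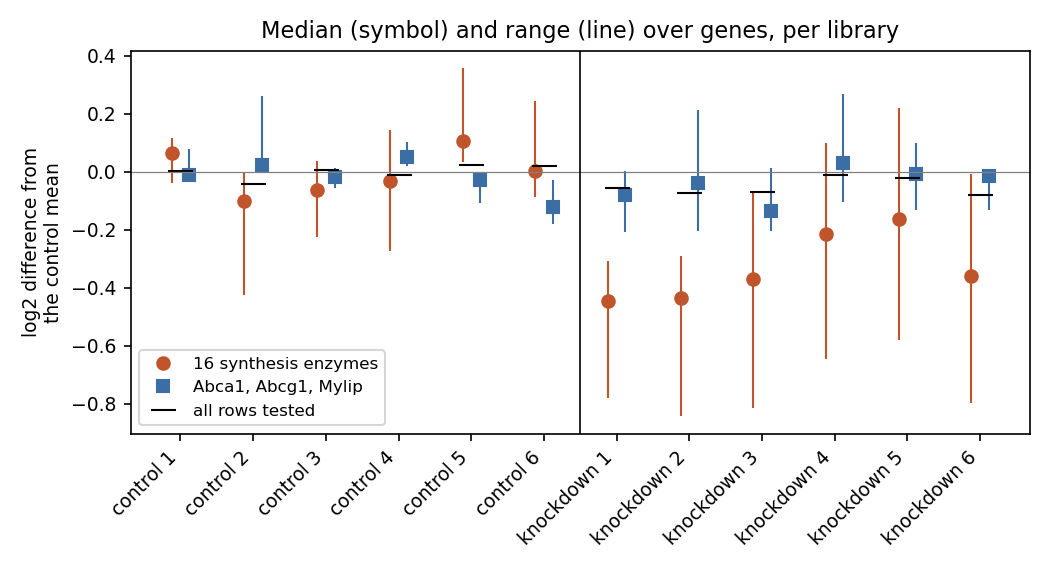
Median (symbol) and range (line) of the log2 difference from the control mean (y axis) over the 16 enzymes and over Abca1, Abcg1 and Mylip in each of the 12 libraries (x axis), with the median of all tested rows as a short line. The enzyme medians lie between -0.44 and -0.16 in the knockdown libraries and between -0.10 and 0.11 in the control libraries, and the export medians lie between -0.13 and 0.03 in the knockdown libraries.

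The fall of the enzymes was present in every knockdown library but not by the same amount. The median log2 difference of the 16 enzymes from their control means was -0.44, -0.43, -0.37, -0.21, -0.16 and -0.36 in knockdown libraries 1 to 6. All 16 enzymes lay below the control mean in libraries 1, 2, 3 and 6, 14 did so in library 4 and 15 in library 5. The same median in the control libraries ran from -0.10 in library 2 to 0.11 in library 5, so the arms did not overlap. The export genes had medians of -0.08, -0.04, -0.13, 0.03, -0.01 and -0.01 in the knockdown libraries and from -0.12 to 0.05 in the control libraries. Over all tested rows the median was -0.06, -0.07, -0.07, -0.01, -0.02 and -0.08 in knockdown libraries 1 to 6, so it too was nearest 0 in libraries 4 and 5. The part of this shift in the enzyme medians was not tested.

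Knockdown libraries 4 and 5 held the highest enzyme levels of their arm. Library 5 was the highest of the 6 for 11 of the 16 enzymes (68.75%) and library 4 for 4, the exception being Ebp in library 3, while over all tested rows library 5 was the highest for 20.2% and library 4 for 26.65%. Neither of them was the lowest for any of the 16 enzymes, where they were the lowest for 9.36% and 11.1% of all rows. The same 2 libraries held the highest Insig1, Srebf2 and Hmgcs1 levels among the knockdown libraries. Zfp407 itself did not follow that order: it was 2.13, 1.93, 1.79, 1.65, 1.60 and 1.62 FPKM in knockdown libraries 1 to 6. Which siRNA each of these libraries received is not given by the column names, so the 2 siRNAs were not compared.

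**Figure D4:**
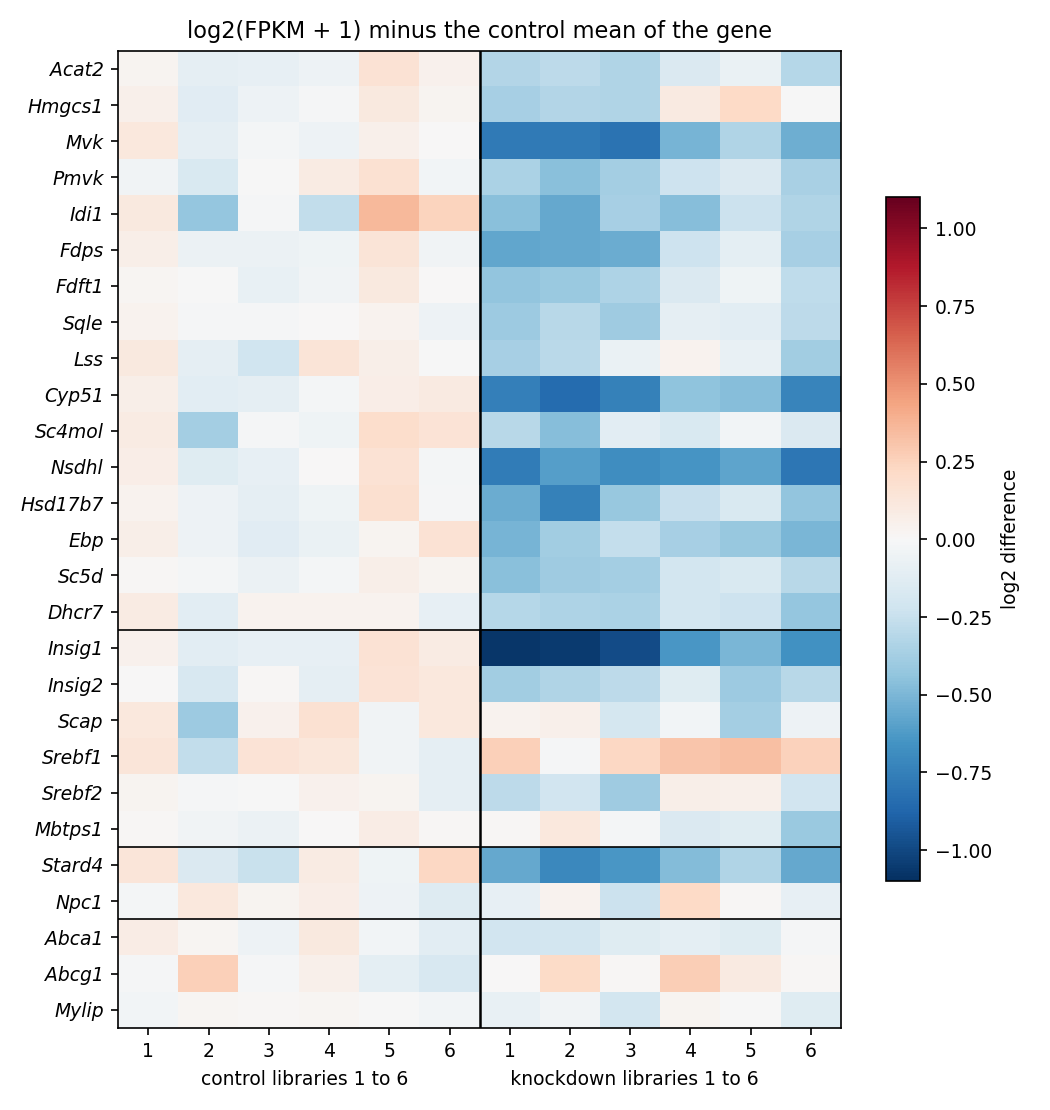
Log2(FPKM + 1) of each of the 27 genes (rows, by role) minus the gene's control mean, in control libraries 1 to 6 and knockdown libraries 1 to 6 (columns); blue is lower and red is higher. Insig1, Mvk, Cyp51 and Nsdhl are blue across all 6 knockdown columns, columns 4 and 5 are paler for most enzymes, and Srebf1 is red in 5 of the 6.

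Other genes of sterol metabolism were described by lists chosen by function, with the 3 rows of smallest p in each named. Of 12 genes of acetyl-CoA supply and SREBP1 targets 11 fell (91.7%) and 0 rose, where 24.8% of all tested rows fell and 11.6% rose. Their median log2 change was -0.54. Acss2, which makes acetyl-CoA from acetate, fell from 27.4 ± 0.971 to 15.0 ± 1.33 FPKM, Fads2, a fatty acid desaturase, from 101.8 ± 4.92 to 53.3 ± 6.56 FPKM, and Acly, which makes cytosolic acetyl-CoA from citrate, from 133.0 ± 6.96 to 89.2 ± 7.55 FPKM (SD, n = 6 per arm; limma adjusted p = 2.27e-07, 2.42e-06 and 1.38e-05). The exception was Elovl6, at 1.41 FPKM in both arms (adjusted p = 0.984). These genes fell in libraries in which Srebf1, by its single row, was called higher. The deposited Acss2 locus is shared with Gss and Ggt7, among others. Acaca is counted among the 11 that fell, and the authors' own test of its row has the status FAIL.

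Among 8 tested genes of electron supply to the sterol oxidases and of accessory factors, 3 fell (37.5%, beside 24.8% of all rows) and 0 rose, with a median of -0.14. Cyb5b, a cytochrome b5 of the outer mitochondrial membrane, went from 96.1 ± 3.84 to 51.6 ± 3.30 FPKM (SD, n = 6 per arm), a log2 change of -0.89 (limma adjusted p = 4.39e-08), which was larger than that of any of the 27 genes. Cyb5r3, the reductase of cytochrome b5, fell by 13.7%, and Pgrmc1, a haem protein that binds CYP51, fell by 13.3% (adjusted p = 0.00948 and 0.0153). Por, which supplies electrons to CYP51 and squalene epoxidase, was 206.9 ± 10.1 and 219.1 ± 10.7 FPKM (SD, n = 6 per arm). Cyb5, another cytochrome b5, was 544.5 ± 39.05 FPKM in control and 480.0 ± 56.7 FPKM in knockdown libraries (SD, n = 6 per arm). Neither Por nor Cyb5 passed (limma adjusted p = 0.177 and 0.087). Both are named beyond the 3 rows of smallest p.

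A further list held genes of the non-sterol isoprenoid branch, which make ubiquinone and dolichol chains or attach isoprenoids to proteins and process those proteins. Of 11 tested genes 1 fell (9.1%) and 2 rose (18.2%), where 24.8% of all tested rows fell and 11.6% rose. Their median of -0.05 was the same as that of all rows, and their difference from the sterol enzymes was not tested. Pdss2, a subunit of the synthase for the ubiquinone tail, fell from 8.52 ± 1.13 to 5.61 ± 0.844 FPKM (SD, n = 6 per arm; limma adjusted p = 0.00117). Nus1, a subunit of the dolichol-forming transferase, rose from 33.8 ± 2.72 to 44.2 ± 4.58 FPKM (adjusted p = 0.00159). Icmt, which methylates prenylated proteins, rose from 10.1 ± 1.01 to 11.9 ± 1.00 FPKM (adjusted p = 0.0233).

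Among 13 tested genes of endoplasmic reticulum turnover and SREBP transport, 3 fell (23.1%) and 2 rose (15.4%), with a median of -0.06. These shares are near the 24.8% and 11.6% of all tested rows. Erlin2, which takes part in the breakdown of sterol-regulated proteins, and Ubxn8, a protein of the same membrane, fell by 18.8% and 20.6% (limma adjusted p = 2.8e-04 and 0.00297), and Syvn1, a ubiquitin ligase of the reticulum, rose by 12.25% (adjusted p = 0.00521). The other calls, named after their values were seen because the counts are small, were Rnf139, which fell (log2 change -0.12, adjusted p = 0.0453), and Sec24a, a coat subunit of the vesicles that leave the reticulum, which rose from 15.8 ± 3.10 to 29.6 ± 11.1 FPKM (SD, n = 6 per arm, limma adjusted p = 0.0106). Sec24a spread from 12.2 to 20.2 FPKM in control and from 19.1 to 46.05 FPKM in knockdown libraries, so the arms overlapped. The authors' own test of the Sec24a row has the status FAIL.

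Of 15 tested genes of uptake, transport and esterification, 4 fell (26.7%) and 1 rose (6.7%), with a median of -0.14. The share that fell is near the 24.8% of all tested rows. Scarb1, a receptor for high-density lipoprotein, ranged from 181.0 to 203.5 FPKM in control and from 100.3 to 126.8 FPKM in knockdown libraries. Scarb1 fell by 38.9% with no overlap (log2 change -0.71, limma adjusted p = 1.98e-06). Cav1, which shapes caveolae, was 1035 ± 63.3 FPKM in control and 670.5 ± 74.0 FPKM in knockdown libraries (SD, n = 6 per arm) and fell (adjusted p = 4.48e-05), at a locus shared with Cav2. Lipa, the lysosomal lipase that frees cholesterol from its esters, fell by 15.5% (adjusted p = 4.53e-04). Npc2 (log2 change -0.14, adjusted p = 0.014) was the fourth that fell and Stard3 (log2 change 0.20, adjusted p = 0.0432) the one that rose, both named after their values were seen.

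The receptors that control the export genes changed in opposite directions. Nr1h3, which encodes LXRα, ranged from 41.2 to 55.4 FPKM in control and from 26.4 to 34.7 FPKM in knockdown libraries and fell by 37.55% (log2 change -0.66, limma adjusted p = 8e-05). Nr1h2, which encodes LXRβ, ranged from 70.1 to 78.4 FPKM in control and from 79.6 to 89.5 FPKM in knockdown libraries and rose by 13.4% (log2 change 0.18, adjusted p = 0.00391). Neither gene overlapped between arms, and Nr1h2 was the more abundant of the pair per length in every library. Lpcat3, an LXR target that remodels phospholipids, fell by 22.8% (log2 change -0.37, adjusted p = 5.55e-04). Among the 8 tested genes of that list, 2 fell (25.0%) and 1 rose (12.5%), shares near the 24.8% and 11.6% of all tested rows, and the median was -0.07.

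The cells carried the markers of adipocytes, and several preadipocyte or fibroblast markers were abundant too. All 9 adipocyte markers were tested, 4 were lower and 1 higher (24.8% and 11.6% of all tested rows were), and their summed level ran from 15830 to 19800 FPKM in control and from 14940 to 19350 FPKM in knockdown libraries. Fabp4, which was not called, was the largest part of that sum, with means of 9588 FPKM in control and 9413 FPKM in knockdown libraries. Lep fell by 52.9%, Cd36 by 28.5%, Adipoq by 18.2% and Cidec by 8.4%, and Cebpa rose by 31.95%. Of 8 preadipocyte or fibroblast markers 7 were tested and 2 were lower, and the sum over the 8 ran from 2470 to 2749 FPKM and from 1953 to 2567 FPKM. Col3a1 and Dlk1 were the largest parts of it, with control means of 1323 and 880.7 FPKM and knockdown means of 1131 and 929.7 FPKM. The authors' own test of the Dlk1 row has the status FAIL. Macrophage markers (4 with a row, Emr1 at 0 in every library) and hepatocyte markers (3) each summed to at most 0.229 FPKM in any library. The part of the adipocyte and fibroblast markers in the fall of the sterol genes was not tested. Depth is not stated in the table; from the step of 1 read in low rows the libraries differed in relative depth from 0.88 to 1.15. Mitochondrial genes took from 19.4% to 32.8% of the summed FPKM, the highest in knockdown library 6, in which the enzyme median of -0.36 lay within the range of the other 5.

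The scale of a gene could differ between arms. In low rows, where 1 read is a visible step, the value of 1 read differed between control libraries of odd and even number in 3.885% of 489 rows, and between the knockdown and control arms in 30.4% of 1137 rows, with a 90th percentile of 0.23 in log2 size. This cannot be read for the sterol genes, whose values are too high to show the step, and its part in their changes was not tested.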

How the data were processed

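RNA-seq had been run on 12 libraries, and the analysis started from 1 deposited table of genes. Per the file headers, the authors gave each library a column of FPKM. Further columns of that deposited table are the authors' log2 fold change, p-value and q-value for all knockdown against all control libraries, in which some ratios are placeholders for a value of 0. Cufflinks 2.0.2, SAMtools 0.1.18.0, TopHat2 2.0.5 and Bowtie2 2.0.0.7 were used, per the submitters' processing notes. The sources used here do not give their order and settings, the annotation, the strandedness or the genome build. The deposited loci of all 27 genes overlap the genes of the same name in GENCODE M21 (GRCm38). Locus starts, counted from 0 in the table, are printed from 1.

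Rows with a mean of at least 1 FPKM were tested with limma 3.58.1 (R 4.3.3) on log2(FPKM + 1), with an intensity trend, all 12 libraries in 1 fit, no covariate, two-sided, and Benjamini-Hochberg adjustment over 14706 rows. A fold change on that scale understates the change of low genes. Single genes were also tested with a two-sided exact permutation test of the difference of mean FPKM (scipy 1.17.1). The limma step was tested on simulated data. Library totals are not stated, so no interval from read counts was computed; the summed FPKM ran from 2772929 to 3748488. No 2 libraries held identical values, and the highest correlation within an arm was 0.981. Column numbers were checked as possible pairs, which was not settled, and the main fit treated the libraries as unpaired. Alternatives covered the pseudocount (0.1 and 5 FPKM), the filter (none and 5 FPKM), scaling, the limma settings, a minimum fold of 1.2, a block for the column number, summed rows, and each library left out. All members are named; of each other list the 3 tested rows with the smallest p are. The members, lists and motifs were chosen with earlier results of these data known. Motifs were sought on both strands of RefSeq promoters (GRCm38.p6), of which 32851 were given.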

Additional observations from a re-analysis of the deposited data

Results flagged for a closer look

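Of 54 sets of 6 libraries examined for a single distant value (both arms of each of the 27 genes), 1 stood out. Chance alone gives about 1 in every 20 sets, so 1 of 54 is no more than chance gives. The set that stood out was Srebf1 in the knockdown arm, where library 2 was the lowest at 184.0 FPKM, the next library held 218.7 FPKM and the highest 234.0 FPKM. The gap was 0.693 of the range of the arm. The call of Srebf1 as higher was not lost when this library was left out, as it was for each of the other 5 knockdown libraries.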

How the results depend on the processing

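The lower calls of the sterol enzymes (13) and of the SREBP2 targets (15) stayed within 1.5 times of these counts under each alternative except a test against a minimum fold of 1.2. That test left 3 enzymes, 4 SREBP2 targets, 1 lower and 0 higher SREBP control genes, 0 lower export genes, and 543 lower and 313 higher rows in all. Leaving out each library in turn gave 13 to 14 enzymes, 15 to 17 SREBP2 targets, 0 to 1 higher SREBP control genes and 0 to 1 lower export genes. The count of higher SREBP control genes, which is Srebf1, was 0 without the filter on low values. The count of lower export genes, which is Abca1, was 0 without that filter, under median centring, under quantile normalization, with a robust fit without trend, and with the column number as a replicate block. Under the replicate block Abca1 had an adjusted p of 0.0928, Sc4mol was called with 0.0165, and no other call of the 27 genes changed. Over all tested rows the deviations of same-numbered columns of the arms correlated weakly (from -0.0493 to 0.145). Own number was the best match for 3 of 6. The column names do not say whether such columns belong together, so pairing was not settled. The log2 change of Npc1 turned positive under median centring (0.009), quantile normalization (0.009) and without knockdown library 3; it ran from -0.073 to 0.018 as each library was left out. The cause of these changes was not tested. Depth per library is unknown, which leaves the counting error of low genes such as Abcg1 unstated.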
